A study of Mus musculus with 12 samples.

Results

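Complex I genes were followed in total RNA of mouse brown adipose tissue, measured on Illumina bead arrays in 6 SIRT1tg and 6 WT samples. The members were all genes whose symbol in the platform annotation begins with Nduf. They were 40 of the 16593 genes named there, read by 53 probes, and each gene was represented by its brightest probe. Of the 40 genes, 39 were detected on enough arrays to be tested, and Ndufs1 was not (0 of 12 arrays). SIRT1tg mice are labelled SIRT1Tg/Tg and WT mice wild type, and both groups share the C57Bl/6N background, the age of 3 months and the tissue. The promoter that drives the transgene is not given in the labels, nor is it stated whether the samples came from separate animals, so p-values reflect sample-to-sample spread, which may be technical. Ndufa11, Ndufaf2, Ndufaf6, Ndufaf8, Ndufb1, Ndufs5 and Ndufa4l2 were not analysed here.

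Levels are normalised log2 signals, and differences are log2 fold changes, SIRT1tg minus WT. The column names of the signal table carry a number that the labels do not explain. These numbers fall into 2 ranges, low and high, each holding 3 arrays of either group. Arrays are called SIRT1tg 1 to 6 and WT 1 to 6 in the order of that number, with 1 to 3 in the low range. The overexpressed gene, Sirt1, read 8.26 ± 0.21 in SIRT1tg samples, against 6.88 ± 0.32 in WT samples (mean ± SD of 6 arrays a group). Of 12 brown fat markers 10 were measured, among them Ucp1 (13.52 ± 0.15 in SIRT1tg and 13.40 ± 0.40 in WT), while Dio2 and Prdm16 were not detected on enough arrays. Of the 10, 6 had the higher mean in SIRT1tg and 4 the lower. No marker of another cell type passed the test over all genes. All 9 measured fibroblast markers had the lower mean in SIRT1tg, 8 of them at an unadjusted p under 0.05, with a summed log2 level of 60.1 to 61.5 in SIRT1tg and 62.8 to 69.8 in WT. Of 16 measured skeletal muscle markers 15 had the lower mean, none at that threshold, and the groups overlapped fully, with sums of 79.6 to 152.0 in SIRT1tg and 79.3 to 146.1 in WT, and Myh1 and Casq1 were not detected on enough arrays. Of 9 macrophage markers 8 had the lower mean, 5 at that threshold (overlapping sums of 59.6 to 67.3 in SIRT1tg and 61.3 to 74.6 in WT), and of 10 endothelial markers 7 had the higher mean, 3 at that threshold (overlapping sums of 75.8 to 79.8 in SIRT1tg and 73.3 to 77.1 in WT). All 4 measured red cell markers had the higher mean, 1 at that threshold (31.3 to 38.6 in SIRT1tg and 33.2 to 35.0 in WT). Over all genes 15.2% differed at that threshold. Their part in the results below was not tested. A fit with the muscle signal as a covariate is given for comparison. In bulk tissue fewer cells of a type and less RNA per cell cannot be told apart.

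Complex I (NADH:ubiquinone oxidoreductase) is the entry point of the respiratory chain. It takes electrons from NADH, passes them along iron-sulfur clusters to ubiquinone and pumps protons across the inner mitochondrial membrane. An N module binds NADH, a Q module reduces ubiquinone, and a membrane arm pumps protons. Assembly factors join these parts and are not kept in the finished enzyme. In brown fat the respiratory chain supplies the proton gradient that Ucp1 dissipates as heat, and the enzyme's product NAD+ is also the cosubstrate of SIRT1.

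No Nduf gene passed the test over all genes in either direction, against 0.149% of the 8035 genes tested (12 genes; limma's moderated test, Benjamini-Hochberg adjusted p under 0.05). The lowest adjusted p among the members was 0.123, that of Ndufb2. At an unadjusted p under 0.05, 5 of 39 members (12.8%) differed, a share close to the 15.2% of all genes. All 5 were higher in SIRT1tg, where 7.62% of all genes were higher at that threshold, and all 5 belonged to the Ndufb subfamily: Ndufb2, Ndufb9, Ndufb5, Ndufb10 and Ndufb4. This count rests on the brightest probe of each gene. Among the 10 other detected probes of members, those of Ndufa5 (0.84), Ndufaf5 (0.57) and Ndufs4 (0.40 and 0.27) were also higher at that threshold. The rest of the 10 did not differ at it. No member separated the groups without overlap, against 1.32% of all genes. Of the 39 members 25 (64.1%) had the higher mean in SIRT1tg, against 47% of all genes, and their median difference was 0.037 against -0.011 over all genes. The sign of these differences depends on the scaling. With median scaling, which moved the median over all genes to -0.096, only 13 members were higher. Their median was then -0.046, which lay above that over all genes, as in the main fit.

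**Figure D1:**
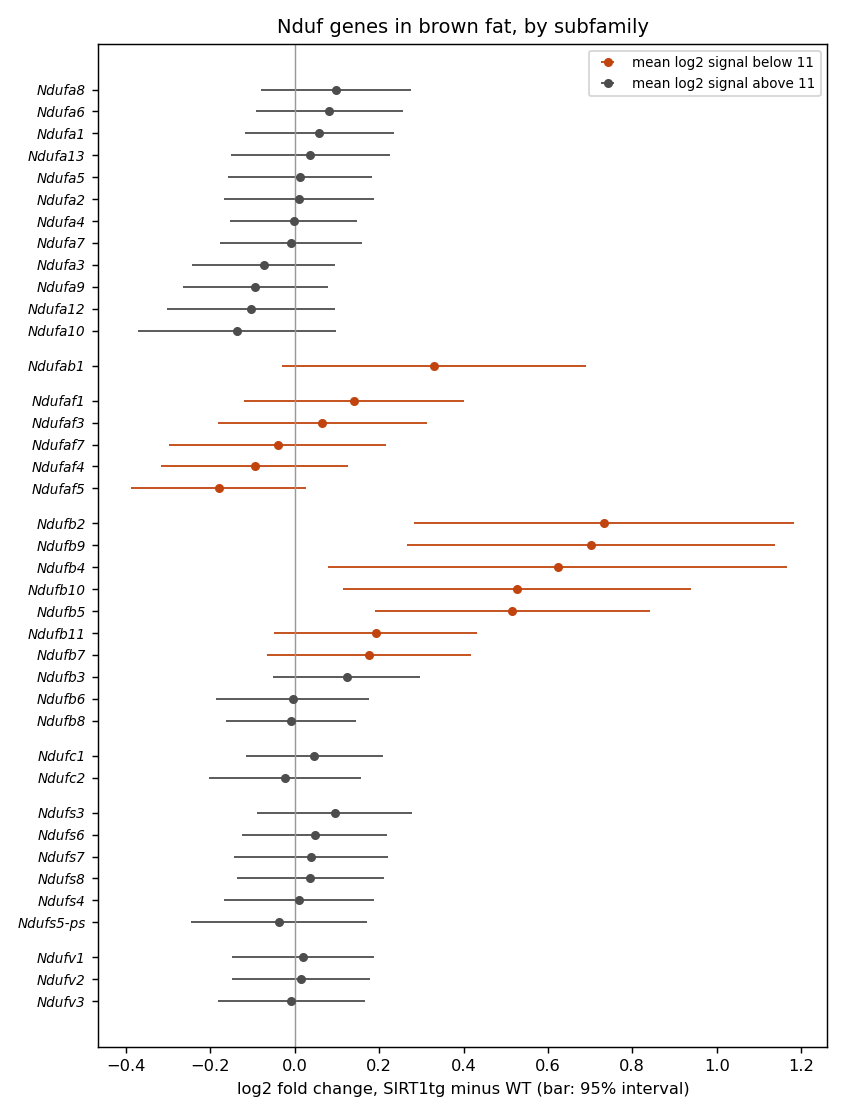
Log2 fold change (SIRT1tg minus WT) of the 39 measured Nduf genes, grouped by subfamily, with 95% intervals from limma (n = 6 arrays a group). Orange marks genes with a mean log2 signal below 11 and grey those above. The intervals of Ndufb2, Ndufb9, Ndufb4, Ndufb10 and Ndufb5 lie above 0, and those of the other 34 genes include 0.

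Read by the brightest probes, the N module, where NADH is oxidised, differed little between the groups. Its 7 measured genes in the module list used here had a median difference of 0.011, with a range of -0.10 to 0.05. Ndufv1, which holds the NADH binding site, had the smallest p of its subfamily. It read 13.10 (lowest), 13.26 (median) and 13.28 (highest) in SIRT1tg, against 13.03, 13.23 and 13.34 in WT. The SIRT1tg values lay inside the WT range, and the difference of 0.021 had a 95% interval of -0.15 to 0.19 (adjusted p = 0.934, limma). Ndufv2, which carries an iron-sulfur cluster, stood at 0.014, and the small subunit Ndufv3 at -0.0082. The accessory subunits Ndufs6 (0.047), Ndufs4 (0.010) and Ndufa2 (0.011) were as close to 0, and Ndufa12 stood at -0.10 (-0.30 to 0.10). The other detected probes of Ndufs4 stood at 0.23 to 0.40 and those of Ndufv3 at 0.23 and -0.035, as given below.

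The Q module, which hands electrons to ubiquinone, was measured through 4 genes of the module list used here, with differences of 0.01 to 0.09. That list placed Ndufa6, Ndufa7 and Ndufa9 (-0.094) in no module, so the module ranges leave them out. Ndufs3, a core subunit of the arm, had the smallest p of the Ndufs genes. It read 11.92, 12.04 and 12.27 in SIRT1tg (lowest, median, highest) and 11.81, 11.93 and 12.13 in WT. The groups overlapped, and the difference of 0.094 had an interval of -0.090 to 0.28 (adjusted p = 0.673, limma). The iron-sulfur subunits Ndufs7 and Ndufs8 stood at 0.038 and 0.037, and the accessory subunit Ndufa5 at 0.013. The 5 measured core subunits encoded in the nucleus (Ndufs3, Ndufs7, Ndufs8, Ndufv1 and Ndufv2) had a median difference of 0.037, with values from 0.014 to 0.094.

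In the part of the membrane arm next to the Q module, 7 genes were measured and 4 had the higher mean in SIRT1tg (median 0.037). Ndufa10, a subunit related to nucleoside kinases, had the smallest p of the Ndufa genes. It read 12.31, 12.54 and 12.65 in SIRT1tg and 12.37, 12.64 and 13.00 in WT, a difference of -0.14 (-0.37 to 0.098). WT 6 gave the highest of these values. Ndufc1, a small membrane subunit, read 12.49, 12.58 and 12.74 in SIRT1tg and 12.43, 12.54 and 12.63 in WT, a difference of 0.046 (-0.12 to 0.21), and Ndufc2 stood at -0.023. Ndufa8 (0.098), Ndufa1 (0.058), Ndufa13 (0.037) and Ndufa3 (-0.074) lay on either side of 0.

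The Ndufa subunits that were placed in no module had differences of 0.082 (Ndufa6), -0.0094 (Ndufa7) and -0.094 (Ndufa9). Ndufs5-ps, which the annotation names as a transcribed pseudogene, stood at -0.037, and whether its probe also reads Ndufs5 could not be told. Ndufa4, which carries the family name but is now counted as a subunit of cytochrome c oxidase, was the second brightest member. It read 13.44, 13.55 and 13.59 in SIRT1tg and 13.48, 13.53 and 13.60 in WT, a difference of -0.0022 (-0.15 to 0.15).

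The distal part of the membrane arm is built around the Ndufb subunits, which surround its proton-pumping core. All are accessory subunits without redox centres. Of 10 measured Ndufb genes 8 had the higher mean in SIRT1tg, with a median difference of 0.35, and that median stayed above 0 in each of the 16 other settings tried, from 0.14 to 0.50. The median of the 29 other Nduf genes was 0.013, with 17 of 29 higher. The comparison of the subfamilies was not tested, since the members were chosen with earlier results known.

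Ndufb2 read 8.31 (lowest), 8.58 (median) and 8.78 (highest) in SIRT1tg, against 6.96, 7.94 and 8.36 in WT. The groups overlapped only because WT 1 (8.35) and WT 4 (8.36) reached above SIRT1tg 1 (8.31). The difference was 0.73 ± 0.21 (SE; 95% interval 0.28 to 1.18), a 1.66-fold higher signal (adjusted p = 0.123, limma).

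Ndufb9 read 10.14, 10.41 and 10.66 in SIRT1tg and 8.79, 9.75 and 10.44 in WT. WT 4 (10.44) stood among the SIRT1tg arrays and WT 6 (8.79) below every other array. The difference was 0.70 ± 0.20 (SE; 0.26 to 1.14; adjusted p = 0.124, limma).

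Ndufb5 read 9.77, 10.12 and 10.38 in SIRT1tg and 9.02, 9.62 and 10.11 in WT. Its highest WT array was again WT 4 and its lowest WT 6. The difference was 0.52 ± 0.15 (SE; 0.19 to 0.84; adjusted p = 0.129, limma).

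Ndufb10 read 9.25, 9.53 and 9.69 in SIRT1tg and 8.03, 9.04 and 9.54 in WT, a difference of 0.53 (0.11 to 0.94; adjusted p = 0.206, limma). Ndufb4 read 6.89, 7.63 and 7.96 in SIRT1tg and 6.29, 6.87 and 7.82 in WT, a difference of 0.62 (0.080 to 1.17; adjusted p = 0.257, limma). The lowest SIRT1tg array of Ndufb4 was SIRT1tg 1, which lay below 3 WT arrays.

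The other Ndufb genes differed less. Ndufb11, among the dimmest members, read 5.59, 5.78 and 5.94 in SIRT1tg and 5.16, 5.70 and 5.77 in WT, a difference of 0.19 (-0.048 to 0.43). Ndufb7 read 8.82, 8.97 and 9.05 in SIRT1tg and 8.34, 8.82 and 9.07 in WT, a difference of 0.18 (-0.065 to 0.42). Ndufb3 read 11.91, 12.01 and 12.04 in SIRT1tg and 11.71, 11.88 and 12.09 in WT, a difference of 0.12 (-0.051 to 0.30). The groups overlapped in all 3, although 4 of 6 SIRT1tg arrays read above every WT array for Ndufb11 and 4 of 6 WT arrays below every SIRT1tg array for Ndufb3.

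The 2 brightest Ndufb genes gave differences near 0. Ndufb8, the brightest member and a subunit often used to detect the enzyme on blots, read 13.60, 13.66 and 13.83 in SIRT1tg and 13.64, 13.70 and 13.74 in WT, a difference of -0.0095 (-0.16 to 0.14). Ndufb6 stood at -0.0043 (-0.19 to 0.18).

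**Figure D2:**
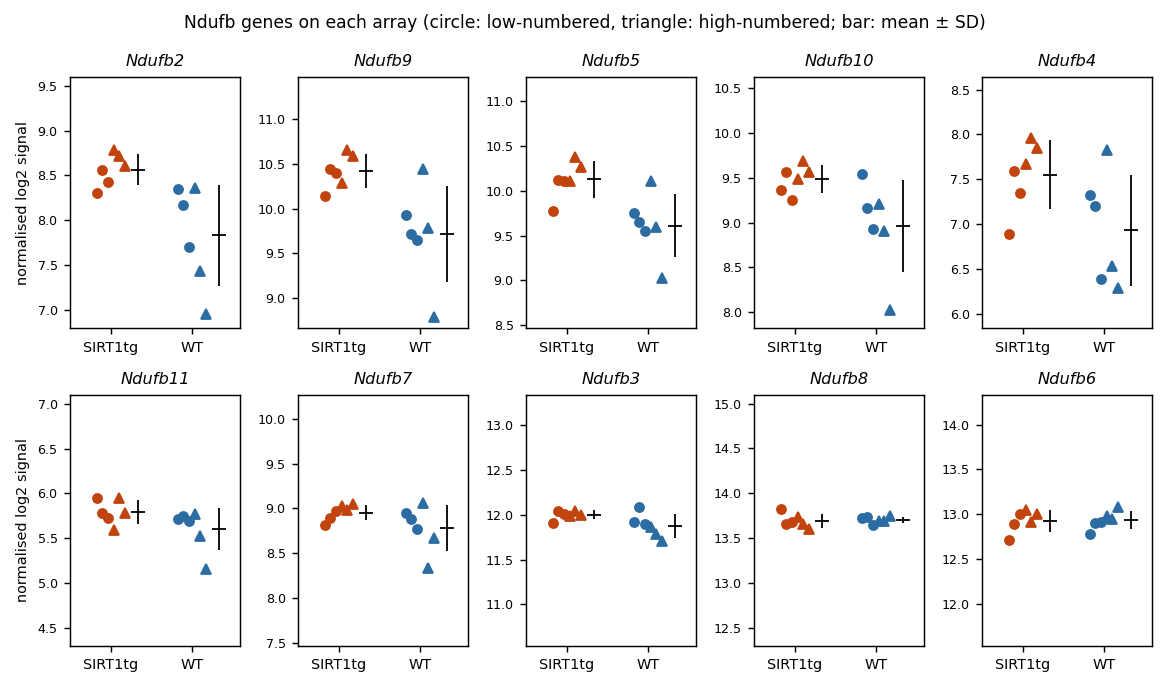
Normalised log2 signal of the 10 Ndufb genes on each array, SIRT1tg in orange and WT in blue, with circles for low-numbered and triangles for high-numbered arrays and black bars for mean ± SD (n = 6). Each panel spans 2.8 log2 units. In the top row the WT arrays spread further down than the SIRT1tg arrays, with WT 6 lowest in each of these 5 genes, and in Ndufb6 and Ndufb8 the groups coincide.

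The Ndufb genes with the largest differences varied together across arrays. In the 7 Ndufb genes with a mean signal below 11, WT 6 was the lowest array in 6, and SIRT1tg 5 the highest in 5. Their mean signal, centred over the 12 arrays, was 0.011 to 0.45 on the SIRT1tg arrays and -0.89 to 0.23 on the WT arrays. The WT arrays did not act as a block: WT 4 (0.23) and WT 1 (0.057) stood within the SIRT1tg values, and WT 2 (-0.090), WT 3 (-0.36), WT 5 (-0.44) and WT 6 (-0.89) below all of them. The mean of the 29 Nduf genes outside the subfamily stayed between -0.075 and 0.048 on SIRT1tg arrays and between -0.088 and 0.058 on WT arrays. These 2 sets are not alike in level. The boundary of 11 was set after the values were seen and leaves out 3 Ndufb genes, while 23 of the 29 lie above it. Over all 10 Ndufb genes the mean was -0.0047 to 0.32 on SIRT1tg and -0.63 to 0.16 on WT arrays. Ndufab1, among the 29, ran from -0.44 to 0.45 on SIRT1tg and from -0.41 to 0.33 on WT arrays. The array pattern was not particular to Ndufb genes. Over 38 genes of complexes II to V the mean was also highest on SIRT1tg 5 (0.24) and lowest on WT 6 (-0.22). Over 70 mitochondrial ribosome genes it was highest on SIRT1tg 2 (0.063) and lowest on SIRT1tg 1 (-0.14). Without WT 6 the differences fell to 0.56 (Ndufb2), 0.51 (Ndufb9), 0.40 (Ndufb5), 0.34 (Ndufb10) and 0.49 (Ndufb4). Without WT 4 they were 0.84, 0.85, 0.62, 0.58 and 0.80 in the same order, and Ndufb9 came to an adjusted p of 0.0503. No member passed whichever array was left out.

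**Figure D3:**
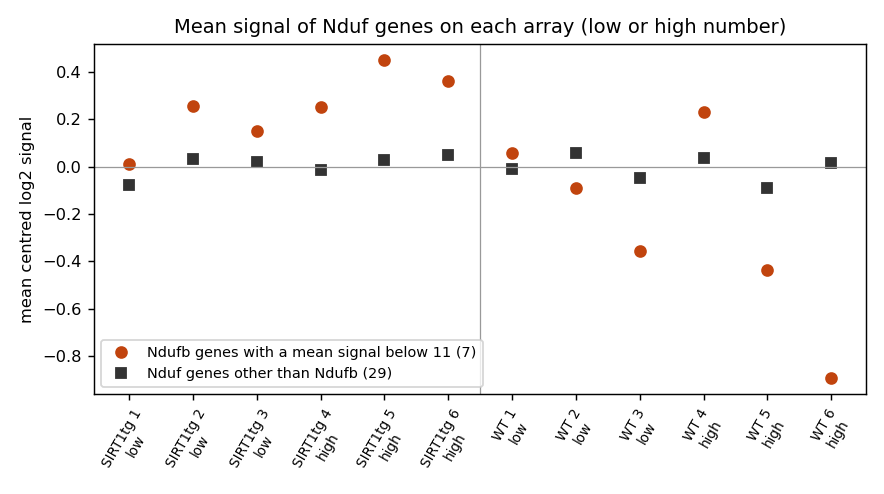
Mean centred log2 signal of 7 Ndufb genes with a mean signal below 11 (orange circles) and of the 29 Nduf genes of other subfamilies (dark squares) on each array, SIRT1tg on the left and WT on the right. WT 2, WT 3, WT 5 and WT 6 lie below every SIRT1tg array in the Ndufb genes, and the squares stay between -0.088 and 0.058. The level of 11 was set after the values were seen, and 23 of the 29 genes lie above it.

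The spread within WT was larger than within SIRT1tg for 8 of the 10 Ndufb genes, against 60.1% of all genes. The median SD was 0.15 in SIRT1tg and 0.30 in WT over these genes, against 0.19 in SIRT1tg and 0.21 in WT over all genes tested. For Ndufb2 the SD was 0.18 in SIRT1tg and 0.57 in WT, and for Ndufb10 it was 0.16 and 0.51.

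When each array's muscle signal (its mean centred level of the muscle markers) entered the fit as a covariate, Ndufb9 (0.88, 95% interval 0.51 to 1.26; adjusted p = 0.0437) and Ndufb5 (0.65, 0.37 to 0.93; adjusted p = 0.0438) passed over all genes in limma. In that fit 0.871% of all genes passed. Ndufb2 (0.87; adjusted p = 0.0583), Ndufb4 (0.85; 0.0753) and Ndufb10 (0.67; 0.0803) did not. Among WT arrays, WT 6 and WT 3 had the lowest muscle signals (-1.71 and -1.73) and WT 5 the highest (2.45). Each of these arrays read low for the Ndufb genes. SIRT1tg 5, highest for the Ndufb genes, had the highest muscle signal of all arrays (2.81). SIRT1tg 1 to 4 had muscle signals of -1.71 to -1.47 and Ndufb means of 0.011 to 0.25. The part of muscle content in the Ndufb differences was not tested.

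Within the number ranges the Ndufb differences were larger on the high-numbered arrays. The median over the 10 genes was 0.50 in the high range (8 of 10 higher) and 0.14 in the low range (10 of 10 higher), with 3 arrays a group in each. Ndufb2 differed by 1.11 in the high and 0.35 in the low range, and Ndufb10 by 0.87 and 0.19. The change between ranges did not pass for any member, with a lowest adjusted p of 0.710 for the interaction over all genes in limma, where 0.0124% of genes passed. No member had an unadjusted interaction p under 0.05, against 7.37% of all genes. With the range as a block no member passed either, against 1.05% of all genes, and the lowest adjusted p was 0.10 (Ndufb2, limma). The range itself separated 5.03% of all genes and none of the 39 members.

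Promoter windows of Ndufb2, Ndufb5, Ndufb10 and Ndufb4, which are 4 of the 5 leading Ndufb genes, are shown beside that of Ndufb8, whose difference was near 0, and Ndufb9 is not shown. Windows run from 250 bases before the annotated start to 30 after it, from RefSeq on GRCm38.p6, 5′ to 3′ along the gene. Capitals mark matches to any of the motifs searched on both strands, namely AAGGTCA (the half-site of estrogen-related receptors), CCGGAAG (ETS factors, GABP among them), GCATGCGC (part of the NRF1 palindrome) and ATGGCGGC (the YY1 core). The windows lie at chr6:39592315-39592594 (plus strand, Ndufb2), chr3:32736813-32737092 (plus strand, Ndufb5), chr17:24724394-24724673 (minus strand, Ndufb10), chr16:37654339-37654618 (minus strand, Ndufb4) and chr19:44555413-44555692 (minus strand, Ndufb8).
Ndufb2: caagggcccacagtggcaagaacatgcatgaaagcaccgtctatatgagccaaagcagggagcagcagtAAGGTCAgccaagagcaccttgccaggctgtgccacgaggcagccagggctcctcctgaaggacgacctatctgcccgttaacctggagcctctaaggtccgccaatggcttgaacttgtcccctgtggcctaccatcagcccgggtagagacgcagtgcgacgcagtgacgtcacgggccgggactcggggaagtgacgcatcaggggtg
Ndufb5: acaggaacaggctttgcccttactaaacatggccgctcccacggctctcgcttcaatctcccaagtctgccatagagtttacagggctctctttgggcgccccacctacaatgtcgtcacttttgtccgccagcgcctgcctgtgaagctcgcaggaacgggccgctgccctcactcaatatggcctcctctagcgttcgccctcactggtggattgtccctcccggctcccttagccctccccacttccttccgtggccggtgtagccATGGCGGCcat
Ndufb10: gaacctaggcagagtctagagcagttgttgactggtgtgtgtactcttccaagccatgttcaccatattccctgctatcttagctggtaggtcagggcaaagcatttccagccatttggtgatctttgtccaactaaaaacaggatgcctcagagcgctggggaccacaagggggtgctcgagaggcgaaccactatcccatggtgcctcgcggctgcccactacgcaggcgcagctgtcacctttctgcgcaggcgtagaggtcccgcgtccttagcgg
Ndufb4: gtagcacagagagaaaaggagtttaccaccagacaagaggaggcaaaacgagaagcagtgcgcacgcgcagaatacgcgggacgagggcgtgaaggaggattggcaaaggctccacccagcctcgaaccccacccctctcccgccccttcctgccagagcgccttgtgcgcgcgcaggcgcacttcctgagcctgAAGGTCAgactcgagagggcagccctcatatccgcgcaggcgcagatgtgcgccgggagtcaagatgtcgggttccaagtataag
Ndufb8: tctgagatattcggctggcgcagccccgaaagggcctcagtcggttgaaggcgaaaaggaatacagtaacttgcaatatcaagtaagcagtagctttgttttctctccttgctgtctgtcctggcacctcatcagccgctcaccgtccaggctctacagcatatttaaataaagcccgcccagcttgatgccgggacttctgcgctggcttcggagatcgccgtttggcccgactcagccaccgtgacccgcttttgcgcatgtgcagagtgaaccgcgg

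The window of Ndufb2 held AAGGTCA with its first base at position -181 from the annotated start, and that of Ndufb4 held it at -55. Ndufb5 held ATGGCGGC at position 20. The windows of Ndufb10 and Ndufb8 held none of these letters. Of 36 measured members with a window, 2 (5.56%) held AAGGTCA, a share close to the 4.46% of all 32851 windows. CCGGAAG was in 5 (13.9%, against 8.45%), GCATGCGC in 4 (11.1%, against 2.58%) and ATGGCGGC in 2 (5.56%, against 1.61%). The 4 genes with GCATGCGC were Ndufa6, Ndufa8, Ndufaf4 and Ndufaf5, whose differences were 0.082, 0.098, -0.095 and -0.18. Members were counted by gene, and a gene counted if any of its windows matched. The comparison was counted by window, over windows of all genes whether measured here or not, so the shares have unlike units. A match describes these letters only.

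Ndufab1, the mitochondrial acyl carrier protein, is a subunit of the enzyme and also serves fatty acid and lipoic acid synthesis in mitochondria. It read 5.66, 6.40 and 6.55 in SIRT1tg and 5.69, 5.80 and 6.42 in WT. SIRT1tg 1 was the lowest of the 12 arrays, and the difference of 0.33 (-0.030 to 0.69) did not pass (adjusted p = 0.383, limma).

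The assembly factors showed no common direction, with 2 of 5 higher and a median of -0.040. Ndufaf5, which in human cells hydroxylates an arginine of the Q module subunit NDUFS7, had the smallest p. It read 8.05, 8.20 and 8.41 in SIRT1tg and 8.15, 8.43 and 8.55 in WT, a difference of -0.18 (-0.39 to 0.027; adjusted p = 0.417, limma). Ndufaf3, which with Ndufaf4 binds the Q module early in assembly, was the dimmest member. It read 5.64, 5.72 and 5.81 in SIRT1tg and 5.20, 5.67 and 5.97 in WT, a difference of 0.065 (-0.18 to 0.31). Ndufaf4 stood at -0.095, Ndufaf1 at 0.14 and Ndufaf7, a methyltransferase, at -0.040.

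The 26 members with a mean signal above 11 had differences between -0.14 and 0.12, with a median of 0.012. The 13 below it had differences between -0.18 and 0.73, with a median of 0.19, and held all 5 genes with an unadjusted p under 0.05. By subfamily, the 7 Ndufb genes among these 13 had a median of 0.53. The 6 others had a median of 0.012 with 3 of 6 higher, close to the 0.013 of the 23 other Nduf genes above the boundary. Larger differences were not confined to Ndufb genes. Ndufab1, among the 6, stood at 0.33, and for some members a dimmer probe differed more than the brightest one, as given below. In complexes II to V, 4 of 12 genes below the boundary (33.3%) were higher at an unadjusted p under 0.05 and 1 was lower. Above it 2 of 26 (7.69%) were higher. The boundary of 11 was set after the values were seen, in a gap of the members' levels between 10.07 (Ndufb9) and 11.37 (Ndufc2). Among all genes the median difference was -0.012 below and -0.0012 above that level, and 7.76% below and 4.42% above it were higher at an unadjusted p under 0.05.

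**Figure D4:**
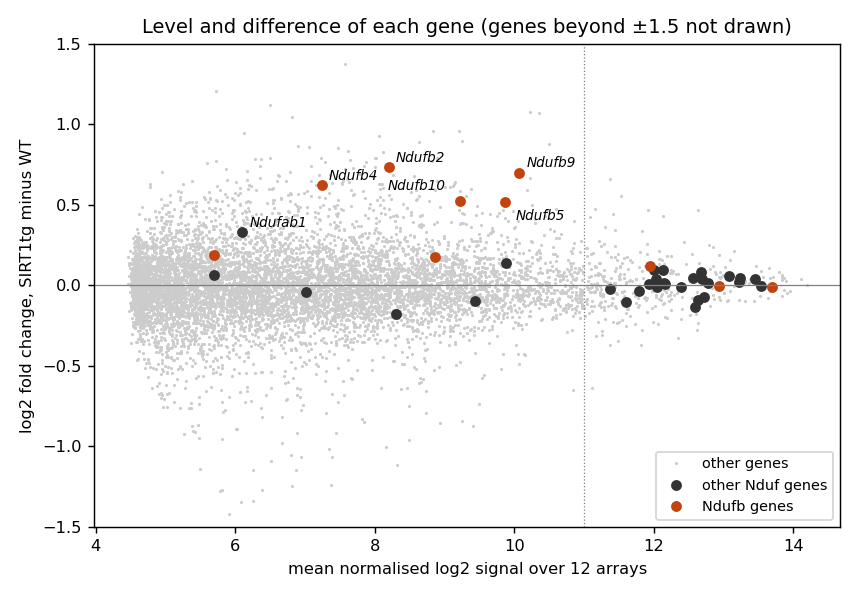
Log2 fold change (SIRT1tg minus WT) against the mean normalised log2 signal over 12 arrays, 1 point a gene, with Ndufb genes in orange, other Nduf genes in black and all other genes in grey. The dotted line marks a level of 11. To its right the Nduf genes lie between -0.14 and 0.12, and to its left the labelled Ndufb genes stand at 0.52 to 0.73.

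For 7 members further probes were detected, 10 in all, and these did not always move with the brightest probe. The other probe of Ndufa5 read 7.32, 8.15 and 8.51 in SIRT1tg and 6.44, 7.18 and 7.79 in WT, a difference of 0.84 (0.32 to 1.37). The brightest probe of Ndufa5 gave 0.013. On 4 of 6 SIRT1tg arrays the dimmer probe read above all WT arrays, and its lowest arrays were WT 6 and WT 5, as for Ndufb2 and Ndufb10. The change of probe shifted the difference by 0.83, with an exact two-sided permutation p of 0.0173 (adjusted p = 0.0577 over the 10 probes).

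The dimmer probe of Ndufaf5 read 5.76, 6.32 and 6.77 in SIRT1tg and 5.39, 5.61 and 6.25 in WT, a difference of 0.57 (0.17 to 0.98). The brighter one stood at -0.18, so the 2 probes of this gene gave opposite signs. Their differences were 0.75 apart (exact permutation p = 0.00649, adjusted p = 0.0325 over the 10 probes). For Ndufa8 the other probe stood at -0.086 and the brightest at 0.098, and they were also apart (adjusted p = 0.0325, exact permutation test).

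The 3 other probes of Ndufs4 stood at 0.40 (0.057 to 0.75), 0.27 (0.027 to 0.52) and 0.23 (-0.025 to 0.49), against 0.010 at its brightest. Their shifts from the brightest probe did not pass (adjusted p = 0.0938, 0.0649 and 0.0938, exact permutation test). The second probe of Ndufb6 stood at 0.11 and that of Ndufc1 at 0.042. Those of Ndufv3 stood at 0.23 and -0.035. None of the 10 passed over all probes in limma, where the lowest adjusted p was 0.121 (Ndufa5). The labels and files used here do not say which part of a transcript each probe reads. The 7 dimmer Ndufb genes had no second probe that passed the filter.

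**Figure D5:**
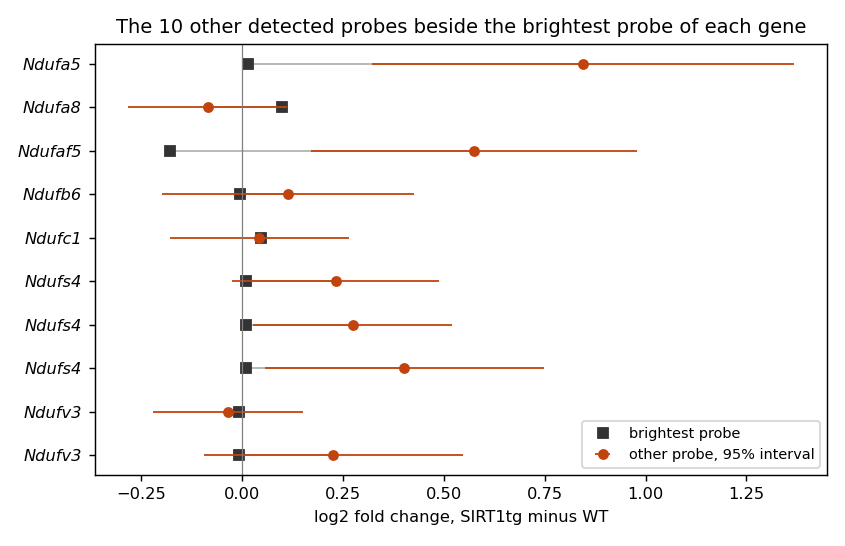
Log2 fold change (SIRT1tg minus WT) of the 10 other detected probes of 7 Nduf genes (orange circles, 95% intervals) beside that of the brightest probe of the same gene (dark squares). The dimmer probes of Ndufa5 (0.84) and Ndufaf5 (0.57) lie right of the brightest (0.013 and -0.18).

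Of 11 further genes that serve complex I on the array, fixed as a list, 10 were measured, 4 of them higher in SIRT1tg, with a median of -0.065. None passed over all genes. Ecsit, which with Ndufaf1 belongs to the assembly complex of the membrane arm, read 9.90, 9.97 and 10.05 in SIRT1tg and 9.35, 9.54 and 9.79 in WT. These groups did not overlap, as was the case for 1.32% of all genes. The difference was 0.43 (0.24 to 0.63; adjusted p = 0.0582, limma), and 0.0432 with the number range as a block. Among its partners Timmdc1 stood at 0.50 (0.20 to 0.80; adjusted p = 0.116) and Tmem126b at -0.35 (-0.60 to -0.11; adjusted p = 0.155), both from limma, while Acad9 stood at -0.12.

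Set beside the other respiratory complexes, the members as a whole did not stand apart. Of 38 measured genes of complexes II to V, 26 were higher (68.4%, against 64.1% of Nduf genes), with a median of 0.039 against 0.037. At an unadjusted p under 0.05, 6 of these 38 genes were higher and 1 lower, together 18.4% against 15.2% of all genes. The ATP synthase gene Atp5e (0.79; adjusted p = 0.0627), the succinate dehydrogenase anchor Sdhd (0.79; 0.116) and the cytochrome c oxidase subunit Cox7b (0.64; 0.181) had differences as large as those of the Ndufb genes, none passing in limma. Of 70 mitochondrial ribosome genes 30 were higher, with a median of -0.029. Differences between these lists were not tested.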

How the data were processed

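Total RNA of 12 brown adipose samples (6 SIRT1tg, 6 WT) was hybridised to Illumina arrays and read with GenomeStudio, per the submitters' processing notes. The authors deposited non-normalised mean bead signals, linear intensity values per the file headers, with a detection p-value per probe and array, and a second deposited table of processed intensity values. These are background-subtracted and normalised between arrays by a method that the labels and headers used here do not name. Columns of the first table name the group but not the replicate.

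Here neqc of limma 3.58.1 (R 4.3.3; offset 16) gave background-corrected, quantile-normalised log2 signals. A probe needed a detection p-value below 0.05 on 6 or more of the 12 arrays, the brightest such probe stood for its gene (8035 genes), and groups were compared with lmFit and eBayes without covariates. Intervals are 95%. Of 40 Nduf gene IDs, 40 matched RefSeq with 0 changed symbols. Median signals lay between 98.95 and 108.6, and 43.7% to 47.1% of probes were detected; the number of arrays limits precision. Members, lists and modules were chosen with earlier results of these data known. The rule for values in full took the 10 members with the smallest p, the 2 brightest, the 2 dimmest and the smallest p of each subfamily; Sirt1, Ucp1, Ppargc1a and its partner regulators were also fixed, and other genes outside the family were named after their values were seen. Code was tested on simulated data. Alternatives changed the background correction, normalisation, detection filter, probe choice, model, number range, muscle covariate, arrays or source of values.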

Additional observations from a re-analysis of the deposited data

Results flagged for a closer look

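Of 82 sets of 6 values examined (39 genes and 2 mean signals in each group), 6 held an array far from the other 5 of its group, a gap above 0.625 of the whole range. Chance alone gives about 4.1. In SIRT1tg, Ndufa9 read 12.53 on SIRT1tg 5 (others 12.59 to 12.61), Ndufaf7 6.57 on SIRT1tg 1 (6.95 to 7.17), Ndufb3 11.91 on SIRT1tg 1 (11.99 to 12.04) and Ndufv1 13.10 on SIRT1tg 4 (13.22 to 13.28). In WT, Ndufa7 read 12.16 on WT 4 (others 12.02 to 12.05) and Ndufaf4 9.07 on WT 5 (9.52 to 9.66). None of the 5 Ndufb genes with the largest differences was among them.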

How the results depend on the processing

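No Nduf gene passed in 16 of the 17 settings other than those with 1 array left out, and 2 did with the muscle signal as a covariate. The number of members with a higher mean was 13 with median scaling, where their median was -0.046, and 21 to 29 (main 25) with 1 array left out, where the median was 0.0085 to 0.047. Over all genes 12 passed. The count was 3 with median scaling, 26 for genes detected on all 12 arrays, 163 with array weights, 24 with a robust trended prior, 84 with the number range as a block, 70 with the muscle covariate, and 1 and 4 in the low and the high range alone. Leaving out 1 array gave 3 (without SIRT1tg 2, 3, 5 or 6) to 151 (without WT 1), with 36 without WT 4 and 4 to 6 without SIRT1tg 4, WT 2, WT 3 or WT 5. On the processed values 13 passed, and 9 with the replicate number as a block, a block that left the Nduf median at 0.022 and 0 members passing. Same-numbered samples of that table correlated at -0.13 to 0.50 in their deviations from the group means, so the numbers were not taken as pairs. The dimmest probe of each gene, tried only after the values had been seen, turned Ndufaf5 to 0.57, and the mean of probes turned it to 0.20. Small differences changed sign with median scaling (Ndufaf3 -0.012, Ndufc1 -0.0069, Ndufs3 -0.0086, Ndufv1 -0.054), cyclic loess (Ndufb8 and Ndufa4, 0.050 each), in the low range alone (Ndufb8 0.020, Ndufa4 0.0064, Ndufaf3 -0.011, Ndufa10 0.025, Ndufs3 -0.050), in the high range alone (Ndufv1 -0.082) and with the muscle covariate (Ndufa4 0.0016), and the cause was not tested. With 1 array left out Ndufb8 ranged from -0.037 to 0.0079, Ndufa4 from -0.015 to 0.017, Ndufaf3 from -0.027 to 0.13 and Ndufv1 from -0.015 to 0.047. The differences of the 5 leading Ndufb genes kept their sign in all 16 settings that gave them.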

Other observations

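Regulators of mitochondrial genes were read beside the members. Ppargc1a, a coactivator of mitochondrial biogenesis, read 9.32 ± 0.999 in SIRT1tg samples, against 8.36 ± 0.47 in WT samples (mean ± SD of 6 arrays a group), a difference of 0.96 with a 95% interval of 0.15 to 1.77 that did not pass (adjusted p = 0.235, limma). The estrogen-related receptor gene Esrra stood at 0.11 (-0.25 to 0.48) and Nrf1 at 0.013 (-0.24 to 0.27). Gabpa stood at -0.0084 (-0.33 to 0.31) and Tfam, which packages and transcribes mitochondrial DNA, at -0.13 (-0.33 to 0.079). Yy1, fixed as a further partner regulator, was not among the genes tested.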
